A study of Homo sapiens with 18 samples.

Results

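The 38 genes described here are those of the ATF4 arm of the integrated stress response and of the unfolded protein response of the endoplasmic reticulum (ER). They were chosen by name as genes of these pathways, with earlier results of these data known, and all 38 were found among the 58884 gene identifiers of the count tables and entered every comparison. They were followed in 18 poly(A) RNA libraries of T47D, an estrogen receptor-positive luminal breast cancer cell line. WT cells and PARP1 KO cells, named so by the genotype labels, were kept for 48 h with the vehicle DMSO, with 10 μM niraparib or with 10 μM olaparib, and each of these 6 groups held 3 libraries. Niraparib, an indazole carboxamide, and olaparib, a phthalazinone, are inhibitors of the DNA repair enzymes PARP1 and PARP2, and both were used at the same dose and time. The WT libraries carry the cell line label T47D AAV and the PARP1 KO libraries the label T47D JL. The labels do not say whether either line is 1 clone, and the genotype cannot be told apart from other differences between these lines.

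Library totals lay between 28890837 and 52251288 counted reads. PARP1 stood at 337 ± 26.95 CPM (counts per 1e6 counted reads of the library, scaled by TMM factors; SD, n = 9) in the WT libraries and at 25.1 ± 1.38 CPM (n = 9) in the PARP1 KO libraries, or 7.45% of the WT level, with no overlap between the genotypes (two-sided exact permutation test, p = 4.1e-05, the smallest that 9 against 9 libraries allow). All 8 luminal markers examined were abundant, from ESR1 at 112 to 176 CPM up to KRT8 at 2403 to 4424 CPM over the 18 libraries. Of 5 markers of fibroblasts, blood and endothelium, VIM, COL1A2, PTPRC and PECAM1 stayed below 1 CPM in every library, PECAM1 and PTPRC being at 0 in some, whereas the collagen gene COL1A1 lay between 88.3 and 152.6 CPM. The summed level of the luminal markers was 12327 to 12852 CPM in WT cells with DMSO, 8835 to 9755 CPM with niraparib and 9640.0 to 10057 CPM with olaparib, and in PARP1 KO cells 13671 to 14399.6, 12627 to 12999 and 11609 to 12682 CPM in the same order. Whether this shift had a part in the results below was not tested.

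In the integrated stress response, the kinases PERK (EIF2AK3), GCN2, PKR and HRI phosphorylate the initiation factor eIF2, which lowers protein synthesis in general but raises translation of the mRNA of the transcription factor ATF4. ATF4 acts mostly together with C/EBP proteins and induces genes for amino acid synthesis and uptake, and also genes that limit the response, such as PPP1R15A and TRIB3. In the unfolded protein response, PERK is joined by the ER stress sensors IRE1 (ERN1), which splices the XBP1 mRNA, and ATF6, which is cut in the Golgi, and the latter pair drives genes for ER chaperones and for ER-associated degradation. ATF4 is controlled largely by translation and XBP1 by splicing, neither of which gene counts measure.

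Promoters are shown because both arms act through known DNA elements. Of the 38 genes, 33 had an entry in the RefSeq promoter table (GRCh38.p14, 250 bases before to 50 bases after a transcription start). ALDH1L2, PSPH, NUPR1, SHMT2 and SLC7A11 had none. The core of the C/EBP-ATF response element, TGATGNAA on either strand, was found in 5 of these 33 genes (15.2%), namely ASNS, CEBPG, CHAC1, HERPUD1 and SLC3A2, and in 4.46% of the 27305 genes of the table, a gene being counted when any of its windows held the motif. The ER stress response element, CCAAT and CCACG separated by 9 bases on either strand, was found in 6 of the 33 (18.2%), namely CALR, CRELD2, HSP90B1, HSPA5, PDIA6 and XBP1, and in 25 of all genes of the table (0.0916%). The unfolded protein response element TGACGTGG was found in 0 of the 33 and in 0.927% of all genes. Counted by window, the first element was in 5 of the 47 windows of the 33 genes (10.6%) and in 3.62% of all 35116 windows, and the second in 6 of the 47 (12.8%) and in 0.0769% of all. These are matches of letters in a window, and overlap between the motifs was not counted apart. The 7 matches to the ER stress response element are printed 5′ to 3′ on the strand of the element, with CCAAT and CCACG in capitals, so that the different spacers can be seen.
HSPA5 (chr9:125241391-125241409, minus strand): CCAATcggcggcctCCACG
HSP90B1 (chr12:103930216-103930234, plus strand): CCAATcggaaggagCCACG
HSP90B1 (chr12:103930321-103930339, minus strand): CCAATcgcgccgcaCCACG
CALR (chr19:12938384-12938402, minus strand): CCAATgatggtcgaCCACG
XBP1 (chr22:28800603-28800621, minus strand): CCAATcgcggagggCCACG
PDIA6 (chr2:10812853-10812871, minus strand): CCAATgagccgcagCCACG
CRELD2 (chr22:49918554-49918572, minus strand): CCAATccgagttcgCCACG

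Whole promoter windows are given for the 3 genes called with niraparib in WT cells that hold one of these elements. SLC3A2 and CEBPG carry the C/EBP-ATF core, which starts 37 bases after the annotated start of SLC3A2, on the opposite strand, and 42 bases before that of CEBPG. HSP90B1 carries 2 ER stress response elements in opposite orientations, the one on the opposite strand reading CGTGG then ATTGG. Capitals mark the fixed letters of each element, and all 3 windows are on the plus strand of GRCh38.p14.
SLC3A2 (chr11:62881449-62881748): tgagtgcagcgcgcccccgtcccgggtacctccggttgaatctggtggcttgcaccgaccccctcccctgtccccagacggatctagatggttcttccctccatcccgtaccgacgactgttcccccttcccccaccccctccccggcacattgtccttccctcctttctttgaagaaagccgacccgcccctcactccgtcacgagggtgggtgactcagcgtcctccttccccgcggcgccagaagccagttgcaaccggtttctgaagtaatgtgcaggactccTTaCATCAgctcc
CEBPG (chr19:33373863-33374162): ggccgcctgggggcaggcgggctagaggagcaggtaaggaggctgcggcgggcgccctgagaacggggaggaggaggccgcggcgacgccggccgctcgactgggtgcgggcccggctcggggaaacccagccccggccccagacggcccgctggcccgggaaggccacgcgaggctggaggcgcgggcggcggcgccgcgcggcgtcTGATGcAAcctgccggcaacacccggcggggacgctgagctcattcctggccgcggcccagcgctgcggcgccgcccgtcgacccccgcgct
HSP90B1 (chr12:103930160-103930459): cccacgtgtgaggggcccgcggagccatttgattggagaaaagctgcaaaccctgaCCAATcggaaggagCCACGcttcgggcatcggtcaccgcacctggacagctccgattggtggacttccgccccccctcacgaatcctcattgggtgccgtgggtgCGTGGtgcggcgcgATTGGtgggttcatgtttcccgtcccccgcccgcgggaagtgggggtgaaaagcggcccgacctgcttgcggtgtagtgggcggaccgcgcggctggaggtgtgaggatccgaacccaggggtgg

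Per transcript length, 3 ER chaperones and XBP1 were the most abundant members in untreated WT cells, while other chaperones such as DNAJB9 (47.3 ± 3.52 TPM, transcripts per 1e6 counted, scaled by exon length; SD, n = 3) lay far lower. CALR, a calcium-binding chaperone, stood at 2551 ± 247 TPM, HSPA5 at 2429 ± 54.3 TPM, XBP1 at 1895 ± 104 TPM and HSP90B1 at 1574 ± 66.9 TPM. The levels of CALR and HSPA5 differed by less than the SD of CALR. ATF4 (338 ± 8.13 TPM) and the transporter gene SLC7A5 (348 ± 12.95 TPM) followed and likewise differed by less than the SD of SLC7A5, while DDIT3 was at 258 ± 29.01 TPM and SLC7A11 at 5.20 ± 0.275 TPM. ASNS, the asparagine synthetase, was listed at 0.399 ± 0.126 TPM, with 433 counts over all 18 libraries. In the annotation used for counting, 49.3% of its exon bases are shared with another gene on the same strand, where reads were left uncounted, and 6726 counts stood on 4 of its pseudogenes, so its true level was not measured.

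A gene was called when its edgeR quasi-likelihood test gave a Benjamini-Hochberg adjusted p below 0.05 over all genes tested together with a change of more than 1.5-fold (0.585 on the log2 scale). In WT cells, niraparib called 9 of the 38 genes higher and 1 lower (26.3%), where 13.8% of all 22446 genes tested were called. Olaparib called 11 higher and 0 lower (28.9%), where 4.04% of all genes were called. With the adjusted p alone, 28 members passed with niraparib (14 higher, 14 lower; 38.0% of all genes passed) and 25 with olaparib (22 higher, 3 lower; 11.2% of all genes were higher and 7.77% lower). The median log2 fold change of the members was -0.012 with niraparib and 0.27 with olaparib, beside -0.025 and -0.017 for all genes tested. Both comparisons share their DMSO libraries. With niraparib 19 members had a positive and 19 a negative log2 fold change, the calls being higher among ATF4 partner, feedback, transporter and sensor genes and lower for a chaperone gene. With olaparib 32 were positive and 6 negative. The 18 members that are not given per library had log2 fold changes between -0.81 and 0.93 over the 9 comparisons, both ends being those of the poorly counted ASNS. In bulk RNA, a change of the same size in every cell and a larger change in a share of the cells cannot be told apart, nor fewer cells of a kind and less RNA per cell.

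**Figure D1:**
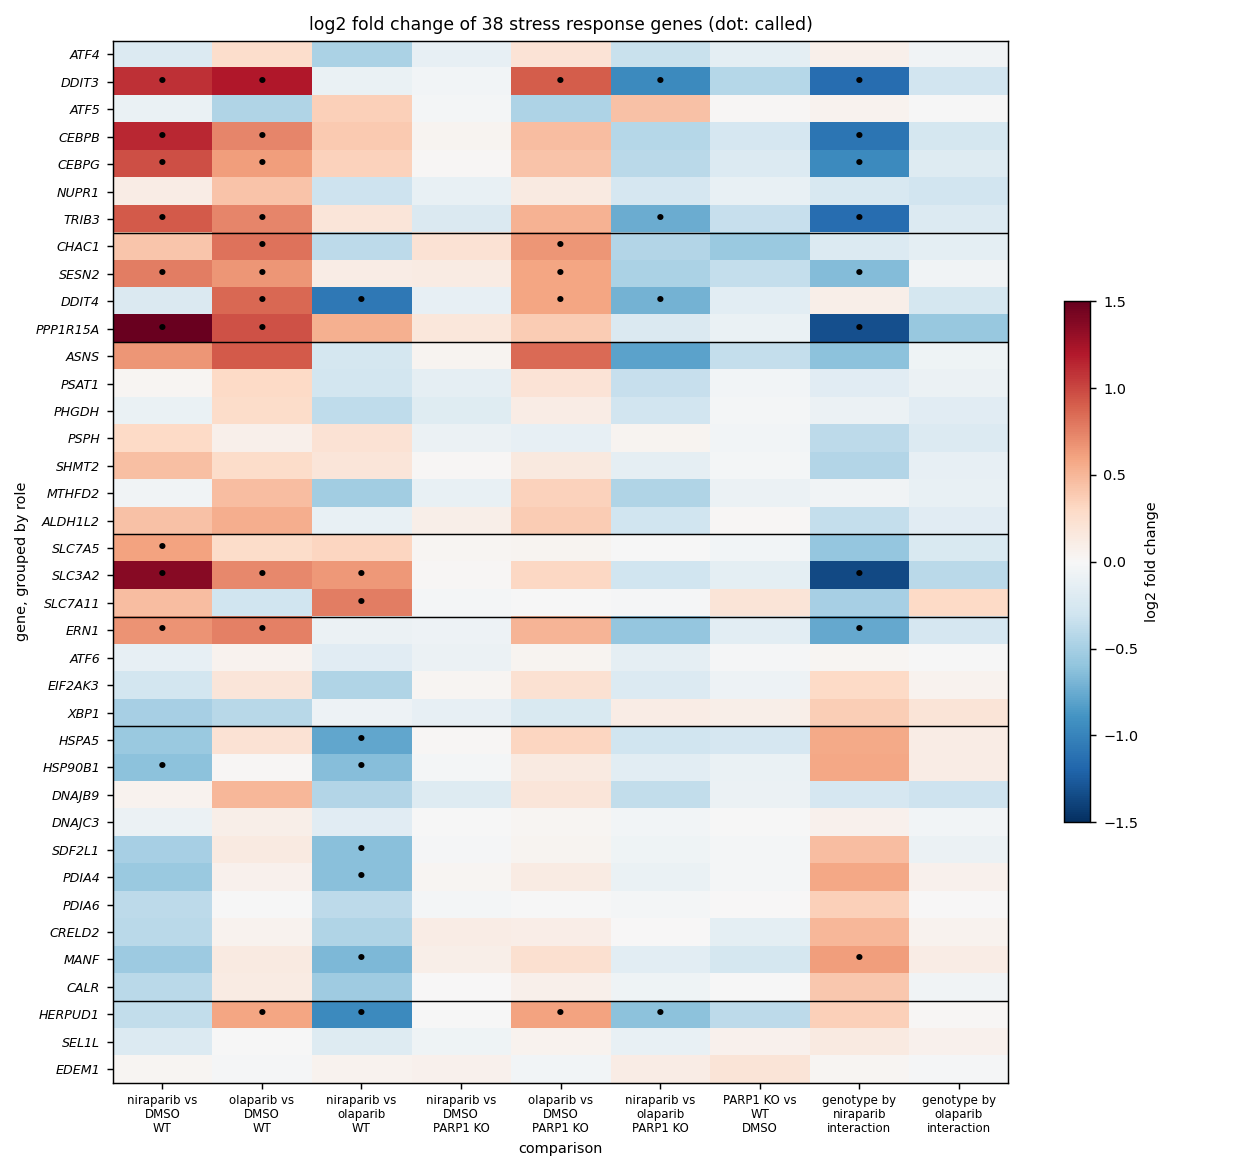
Log2 fold change (colour, edgeR) of the 38 genes (vertical axis, grouped by role and separated by lines) in the 9 comparisons (horizontal axis), with a dot where the gene was called. In WT cells most called cells of the upper groups are red with both drugs, the chaperone rows run from -0.62 for HSP90B1 to 0.06 for DNAJB9 with niraparib, and the niraparib column of PARP1 KO cells holds no dot.

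Among ATF4 and its partner factors, 4 of 7 were called higher with each drug in WT cells, and ATF4 itself was not. Of all genes 8.10% were called higher with niraparib and 2.06% with olaparib. ATF4 (ENSG00000128272, chr22:39519695-39522685 of GRCh38) was at 235, 225 and 219.8 CPM in WT cells with DMSO, at 197, 196 and 197 CPM with niraparib and at 282, 259 and 275 CPM with olaparib. All 3 niraparib libraries lay below and all 3 olaparib libraries above those with DMSO. Its log2 fold change was -0.20 with niraparib (SE 0.047, edgeR adjusted p = 0.0012) and 0.27 with olaparib (SE 0.046, edgeR adjusted p = 0.000259), both under 1.5-fold. The ATF4 mRNA was thus lower with one drug, and higher with the other, in cells in which DDIT3 and TRIB3 rose with both.

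DDIT3 (ENSG00000175197, chr12:57516588-57521737) encodes CHOP, a C/EBP-family factor linked to cell death under ER stress, and shares 8.03% of its exon bases with an overlapping gene. It was at 101, 88.9 and 79.5 CPM with DMSO, 187, 202 and 185 CPM with niraparib and 216, 187 and 213 CPM with olaparib. The log2 fold changes were 1.09 (SE 0.082, edgeR adjusted p = 3.28e-07) and 1.20 (SE 0.083, edgeR adjusted p = 1.01e-06), and the libraries of the 2 drugs overlapped. TRIB3 (ENSG00000101255, chr20:362835-397559), a pseudokinase that binds ATF4 and CHOP and dampens them, also rose with both. Its libraries read 162, 158 and 151 CPM with DMSO, 289, 304 and 298 CPM with niraparib and 274, 241 and 267 CPM with olaparib. TRIB3 rose by 0.92 and 0.73 on the log2 scale (edgeR adjusted p = 5.86e-12 and 2.68e-09), with no overlap between either drug and DMSO.

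The C/EBP factors CEBPB (ENSG00000172216, chr20:50190734-50192689) and CEBPG (ENSG00000153879, chr19:33373685-33382686), which pair with ATF4 on DNA, rose with both drugs and were higher with niraparib than with olaparib, by 0.39 and 0.35 on the log2 scale (edgeR adjusted p = 0.000188 and 2.14e-06, under 1.5-fold). CEBPB was at 99.02, 84.7 and 80.6 CPM with DMSO, 183, 194 and 199 CPM with niraparib and 156, 136 and 145 CPM with olaparib. CEBPG was at 99.2, 103 and 99.6 CPM with DMSO, 194, 203 and 194 CPM with niraparib and 155, 154 and 155 CPM with olaparib. For either gene the 3 groups did not overlap. The log2 fold changes with niraparib were 1.12 for CEBPB and 0.97 for CEBPG, and those with olaparib 0.73 and 0.62 (edgeR adjusted p at most 1.12e-06). ATF5, another ATF4-family factor, was lower with olaparib at -0.45 on the log2 scale (edgeR adjusted p = 9.06e-05), under 1.5-fold, and NUPR1, a stress-induced chromatin protein, was higher with olaparib at 0.43 (adjusted p = 3.46e-06), also under 1.5-fold.

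All 4 feedback and stress effector genes were called higher with olaparib and 2 of the 4 with niraparib, where 2.06% and 8.10% of all genes were called higher. PPP1R15A (ENSG00000087074, chr19:48872421-48876058), also known as GADD34, directs a phosphatase to eIF2 and so reverses the kinase step. It read 42.7, 45.9 and 39.01 CPM with DMSO, 115, 129 and 113 CPM with niraparib and 87.6, 80.9 and 78.3 CPM with olaparib, 3 ranges that did not overlap. Its change of 1.48 with niraparib (SE 0.066, edgeR adjusted p = 7.79e-13), or 2.79-fold, was the largest of all 38 genes in the 9 comparisons, while olaparib gave 0.95. SESN2 (ENSG00000130766, chr1:28259518-28282491), a leucine sensor that restrains mTORC1, was at 54.1, 52.8 and 50.3 CPM with DMSO, 91.9, 90.9 and 85.7 CPM with niraparib and 81.9, 78.2 and 87.1 CPM with olaparib. SESN2 rose by 0.77 and 0.66 on the log2 scale (edgeR adjusted p = 2.05e-10 and 2.82e-08).

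The remaining effectors differed between the drugs. DDIT4 (ENSG00000168209, chr10:72273924-72276036), or REDD1, an inhibitor of mTORC1, was at 46.98, 49.4 and 47.8 CPM with DMSO, 44.98, 35.9 and 43.4 CPM with niraparib and 95.9, 79.9 and 85.02 CPM with olaparib. All olaparib libraries stood well above the other 6, and the niraparib libraries stood below those with DMSO. DDIT4 rose by 0.86 with olaparib (edgeR adjusted p = 4.21e-06), had a log2 fold change of -0.22 with niraparib (adjusted p = 0.0504), and differed by -1.08 between niraparib and olaparib (SE 0.082, adjusted p = 1.15e-07). CHAC1 (ENSG00000128965, chr15:40952962-40956512), which degrades glutathione, read 13.8, 12.2 and 10.5 CPM with DMSO, 16.3, 15.2 and 17.1 CPM with niraparib and 23.1, 19.5 and 21.2 CPM with olaparib. It was called with olaparib (log2 fold change 0.81, edgeR adjusted p = 2.34e-06) and stayed under 1.5-fold with niraparib (0.41, adjusted p = 0.00119).

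None of the 7 serine, asparagine and one-carbon enzymes was called with either drug (0 of 7 in edgeR). By the adjusted p alone, 3 of the 7 passed with niraparib, beside 38.0% of all genes in either direction. With olaparib 5 of the 7 passed, beside 11.2% of all genes higher and 7.77% lower. All enzymes that passed were higher. With niraparib these were SHMT2 (0.45), ALDH1L2 (0.44) and PSPH (0.30 on the log2 scale), enzymes of mitochondrial folate metabolism and of the last step of serine synthesis. With olaparib they were ALDH1L2 (0.55), MTHFD2 (0.47), PSAT1 (0.30), PHGDH (0.28) and SHMT2 (0.27). PHGDH, which catalyses the first step of serine synthesis, had a log2 fold change of -0.10 with niraparib (edgeR adjusted p = 0.0685) and MTHFD2 one of -0.056 (adjusted p = 0.42). ASNS, poorly counted as described above, gave 0.66 and 0.93 with adjusted p values of 0.212 and 0.113.

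Among the amino acid transporters, SLC3A2 (ENSG00000168003, chr11:62856102-62888875), the heavy chain of the transporters formed with SLC7A5 and SLC7A11, showed the largest change. It stood at 360.3, 368 and 338 CPM with DMSO, at 889, 956 and 904 CPM with niraparib and at 601, 570.1 and 578 CPM with olaparib. The 3 treatments gave 3 separate ranges, with log2 fold changes of 1.37 for niraparib (SE 0.05, edgeR adjusted p = 5.13e-15), 0.72 for olaparib (SE 0.049, adjusted p = 2.33e-09) and 0.65 between them (adjusted p = 1.44e-09). SLC7A5 (ENSG00000103257, chr16:87830023-87869507), the light chain for large neutral amino acids, was at 427, 455 and 444 CPM with DMSO, 664, 658 and 693 CPM with niraparib and 539, 519 and 543 CPM with olaparib. It rose by 0.60 with niraparib (edgeR adjusted p = 8.9e-10), a call close to the 1.5-fold limit that was lost without WT niraparib replicate 3 or WT DMSO replicate 1 (lowest log2 fold change 0.58), and was at 0.28 with olaparib. SLC7A11 (ENSG00000151012, chr4:138164097-138242349), the cystine/glutamate exchanger, read 13.4, 14.2 and 12.6 CPM with DMSO, 16.4, 18.7 and 20.2 CPM with niraparib and 10.4, 11.1 and 11.02 CPM with olaparib. Its log2 fold changes of 0.46 and -0.30 were each under 1.5-fold and of opposite sign, and niraparib exceeded olaparib by 0.76 (SE 0.088, edgeR adjusted p = 5.55e-07).

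Of the 4 genes for ER stress sensors and XBP1, only ERN1 was called in WT cells, with both drugs, where 13.8% (niraparib) and 4.04% (olaparib) of all genes were called. ERN1 (ENSG00000178607, chr17:64039142-64130819) was at 38.1, 35.1 and 35.2 CPM with DMSO, 57.8, 57.2 and 58.4 CPM with niraparib and 66.5, 57.6 and 58.96 CPM with olaparib. It rose by 0.68 and 0.76 on the log2 scale (edgeR adjusted p = 6.24e-09 and 1.22e-08), and the drugs differed by -0.082 (95% interval -0.20 to 0.04, adjusted p = 0.331). XBP1 (ENSG00000100219, chr22:28794555-28800597), the target of the IRE1 nuclease, was lower instead, going from 1448, 1570.5 and 1575 CPM with DMSO to 1096, 996 and 1169 CPM with niraparib and 1099, 1178 and 1145 CPM with olaparib. All 6 treated libraries lay below those with DMSO (log2 fold changes -0.49 and -0.42, edgeR adjusted p = 3.77e-07 and 1.76e-05), under 1.5-fold. EIF2AK3 was at -0.27 with niraparib and 0.18 with olaparib (adjusted p = 0.000725 and 0.037), and ATF6 at -0.12 and 0.048 (adjusted p = 0.0496 and 0.571).

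Most ER chaperones and folding enzymes were lower with niraparib, and none was with olaparib. With niraparib in WT cells, 8 of the 10 passed the adjusted p, all lower, and HSP90B1 alone also passed 1.5-fold. Of all genes 38.0% passed the adjusted p in either direction and 5.72% were called lower, so 1 call of 10 was near the general share. With olaparib, 0 of 10 were called in edgeR and 2 passed the adjusted p, both higher, namely DNAJB9 (0.50 on the log2 scale), a co-chaperone that represses IRE1, and HSPA5 (0.22). Of all genes 4.04% were called with olaparib and 11.2% passed the adjusted p higher. The list's median log2 fold change was -0.45 with niraparib and 0.11 with olaparib. HSPA5 (ENSG00000044574, chr9:125234853-125241343), the Hsp70 chaperone BiP that holds the 3 sensors inactive, read 2533, 2614 and 2479 CPM with DMSO, 1848, 1577 and 1755 CPM with niraparib and 3009, 2855 and 2969.8 CPM with olaparib. Its 3 ranges did not overlap, with log2 fold changes of -0.56 for niraparib (edgeR adjusted p = 6.75e-08, under 1.5-fold), 0.22 for olaparib (adjusted p = 0.00998, under 1.5-fold) and -0.77 between them (SE 0.058, adjusted p = 1.18e-09).

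HSP90B1 (ENSG00000166598, chr12:103930107-103953645), the ER Hsp90 paralog GRP94, was at 1891, 2033 and 1989.9 CPM with DMSO, 1358, 1162 and 1338 CPM with niraparib and 2014, 2008 and 1970.3 CPM with olaparib. The niraparib libraries lay below the other 6, and the log2 fold change was -0.62 (SE 0.058, edgeR adjusted p = 1.57e-08). WT niraparib replicate 2 was the lowest of the 3 niraparib libraries for all 10 chaperone genes, and without it HSP90B1 stood at -0.55, short of 1.5-fold. PDIA4 (ENSG00000155660, chr7:149003062-149028662), a protein disulfide isomerase, was at 263, 281 and 278 CPM with DMSO, 197, 166 and 194 CPM with niraparib and 291, 281 and 286 CPM with olaparib. MANF (ENSG00000145050, chr3:51385047-51389397), an HSPA5 cofactor, was at 95.5, 104 and 98.6 CPM with DMSO, 70.3, 63.3 and 71.6 CPM with niraparib and 115, 109 and 102 CPM with olaparib. SDF2L1 (ENSG00000128228, chr22:21642302-21644299), an ER-resident partner of DnaJ proteins, was at 34.2, 34.1 and 33.8 CPM with DMSO, 25.8, 21.96 and 24.9 CPM with niraparib and 36.4, 38.3 and 37.3 CPM with olaparib. For these 3 genes, as for HSP90B1, every niraparib library was below every DMSO and olaparib library. The log2 fold changes with niraparib were -0.56 for PDIA4, -0.54 for MANF and -0.49 for SDF2L1 (edgeR adjusted p at most 2.13e-06), all under 1.5-fold, and CRELD2, PDIA6 and CALR were each at -0.40. DNAJC3 (-0.084), an inhibitor of PERK, and DNAJB9 (0.058) did not pass.

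Of the 3 ER-associated degradation genes, HERPUD1 was called higher with olaparib and lower with niraparib than with olaparib. HERPUD1 (ENSG00000051108, chr16:56932142-56944864), a membrane component of the degradation complex that ATF4 as well as ATF6 and XBP1 can induce, was at 102, 94.7 and 89.4 CPM with DMSO, 77.9, 70.3 and 73.4 CPM with niraparib and 153, 135 and 141 CPM with olaparib. These ranges did not overlap, and the difference between niraparib and olaparib was -0.96 on the log2 scale (SE 0.059, edgeR adjusted p = 8.16e-11). Against DMSO it was 0.59 with olaparib (adjusted p = 3.77e-07), just past 1.5-fold and short of it in 7 of 12 alternative analyses (range 0.53 to 0.64), and -0.37 with niraparib (adjusted p = 2.99e-05, under 1.5-fold). SEL1L, a scaffold of the HRD1 ligase, was at -0.20 with niraparib (adjusted p = 0.00169) and -0.006 with olaparib, and EDEM1, which trims mannose from misfolded glycoproteins, was at 0.034 and -0.015.

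Tested against each other in WT cells, niraparib and olaparib called 9 of 38 members apart (23.7%), where 8.95% of all genes were called. Higher with niraparib were SLC7A11 and SLC3A2, and lower were DDIT4, HERPUD1, HSPA5, MANF (-0.67), HSP90B1 (-0.64), SDF2L1 (-0.63) and PDIA4 (-0.63 on the log2 scale). Without WT niraparib replicate 2, the calls of HSP90B1, SDF2L1 and PDIA4 were lost and 6 remained. By the adjusted p alone 31 members differed (10 higher and 21 lower with niraparib; 32.2% of all genes), among them all 10 chaperone genes, lower, and ATF4 at -0.47 (edgeR adjusted p = 6.93e-08). The median over the members was -0.23, beside 0.020 for all genes. DDIT3 (difference -0.10, 95% interval -0.28 to 0.072) and SESN2 (0.12, 0.0048 to 0.23) did not pass (edgeR adjusted p = 0.391 and 0.108), and their intervals lay within 1.5-fold.

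**Figure D2:**
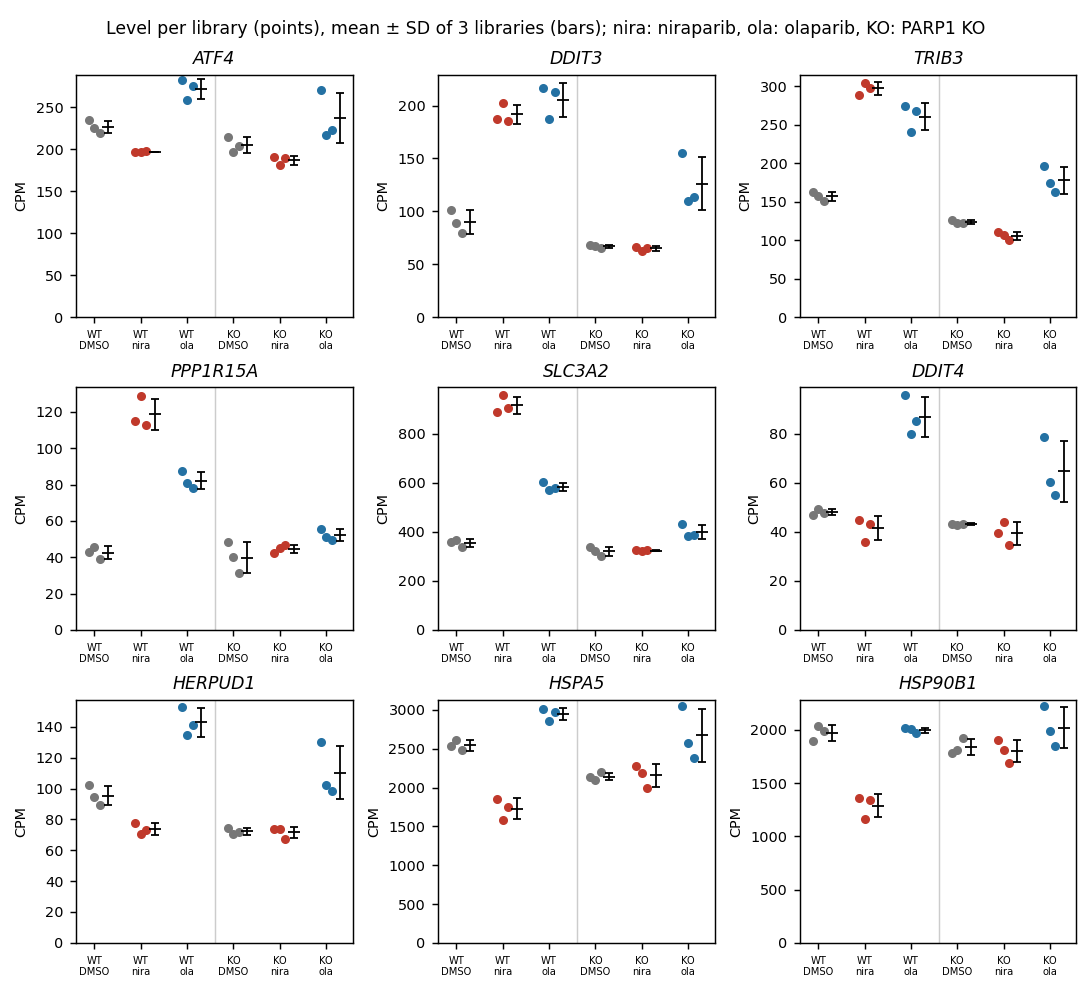
Level in CPM (vertical axis, starting at 0) of 9 of the genes in each of the 18 libraries, by genotype and treatment (horizontal axis), with the mean and SD of the 3 libraries of a group beside the points. In WT cells SLC3A2 rises from 338 to 368 CPM with DMSO to 889 to 956 CPM with niraparib, HSPA5 and HSP90B1 are lowest with niraparib, and in PARP1 KO cells the niraparib points overlap those with DMSO except for ATF4 and TRIB3, where they lie below.

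In PARP1 KO cells, niraparib called 0 of the 38 members in edgeR, where 0.0136% of all 22037 genes tested were called. DESeq2 also called 0, 0 members passed the adjusted p alone (0.109% of all genes did), and 4 had an unadjusted p below 0.05 (9.14% of all genes). The lowest adjusted p was 0.136, for PHGDH. Leaving ASNS aside, the 95% intervals of the other 37 log2 fold changes all lay between -0.44 and 0.50, inside 1.5-fold. PARP1 KO libraries read 339, 323 and 301 CPM with DMSO against 327, 319.8 and 324 CPM with niraparib for SLC3A2, a log2 fold change of 0.016 (95% interval -0.094 to 0.13). For PPP1R15A they read 48.4, 39.99 and 31.3 CPM with DMSO against 42.5, 44.9 and 46.5 CPM with niraparib (0.17, -0.14 to 0.48). The niraparib libraries overlapped those with DMSO for both genes.

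The chaperone genes that were lower with niraparib in WT cells were near their DMSO level in PARP1 KO cells. HSP90B1 was at 1783, 1814 and 1926 CPM with DMSO and 1901, 1806 and 1693 CPM with niraparib there (log2 fold change -0.028, 95% interval -0.15 to 0.099). HSPA5 was at 2133, 2097 and 2195 CPM with DMSO against 2280.3, 2192 and 1995 CPM with niraparib (0.014, -0.15 to 0.18). PDIA4 was at 269.7, 256 and 282 CPM with DMSO against 282, 274 and 264 CPM with niraparib. For each of these 3 genes the 2 treatments overlapped. MANF read 85.1, 79.8 and 83.4 CPM with DMSO against 92.4, 88.3 and 82.6 CPM with niraparib, SDF2L1 32.97, 33.4 and 33.8 CPM with DMSO against 31.7, 33.7 and 32.7 CPM with niraparib, and XBP1 1632, 1589 and 1654 CPM with DMSO against 1509, 1517 and 1449.8 CPM with niraparib. The 3 niraparib libraries of XBP1 were below the DMSO libraries, at a log2 fold change of -0.12 that did not pass (edgeR adjusted p = 0.447).

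None of the 7 genes for ATF4 and its partners passed with niraparib in PARP1 KO cells, where 0.109% of all genes passed the adjusted p. DDIT3 was at 67.97, 67.4 and 65.5 CPM with DMSO and 66.8, 62.8 and 65.1 CPM with niraparib, CEBPB at 76.5, 76.1 and 69.5 CPM with DMSO against 75.9, 74.2 and 77.01 CPM with niraparib, and CEBPG at 84.3, 86.8 and 90.01 CPM with DMSO against 92.7, 89.6 and 81.6 CPM with niraparib. TRIB3 was at 126, 122 and 122 CPM with DMSO against 110.4, 107 and 100.1 CPM with niraparib. ATF4 was at 215, 197 and 203 CPM with DMSO against 191, 181 and 189.7 CPM with niraparib. TRIB3 and ATF4 had every niraparib library below every DMSO library, with log2 fold changes of -0.22 and -0.13 that did not pass (edgeR adjusted p = 0.179 and 0.612).

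The other members with values per library lay as follows in PARP1 KO cells. SLC7A5 read 443, 426 and 422 CPM with DMSO against 449.8, 454 and 411 CPM with niraparib, SLC7A11 15.9, 15.4 and 14.9 CPM with DMSO against 14.5, 14.7 and 15.6 CPM with niraparib, and ERN1 34.2, 32.2 and 30.8 CPM with DMSO against 32.8, 29.8 and 29.3 CPM with niraparib. SESN2 read 41.5, 41.8 and 39.4 CPM with DMSO against 46.7, 44.9 and 41.7 CPM with niraparib, CHAC1 8.02, 7.93 and 8.71 CPM with DMSO against 10.1, 10.3 and 8.28 CPM with niraparib, DDIT4 43.3, 42.6 and 43.4 CPM with DMSO against 39.5, 43.9 and 34.7 CPM with niraparib, and HERPUD1 74.6, 70.2 and 72.1 CPM with DMSO against 73.9, 73.6 and 67.4 CPM with niraparib. In all 7 the ranges of DMSO and niraparib overlapped.

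With olaparib in PARP1 KO cells, 5 of the 38 members were called, all higher (13.2%), where 0.803% of all genes were called. By the adjusted p alone 18 passed (16 higher, 2 lower; 8.29% of all genes). The median over the members was 0.19, beside 0.0058 over all genes. The 5 were DDIT3 (0.91, SE 0.12, edgeR adjusted p = 0.00325), CHAC1 (0.66), HERPUD1 (0.61), SESN2 (0.60) and DDIT4 (0.59, SE 0.13, adjusted p = 0.0332). Their olaparib libraries read 155, 109.8 and 113 CPM for DDIT3, 16.2, 11.2 and 11.4 CPM for CHAC1 and 129.8, 102 and 98.3 CPM for HERPUD1. For SESN2 they read 72.8, 56.5 and 56.2 CPM and for DDIT4 78.8, 60.5 and 54.98 CPM. For all 5 genes the first of the 3 libraries was the highest, and every olaparib library was above every DMSO library. Without PARP1 KO olaparib replicate 1, DDIT3 alone was still called (log2 fold change 0.73), and without PARP1 KO DMSO replicate 3 the called members were 3. The call of DDIT4, close to the fold limit, was lost in 7 of 12 alternative analyses (adjusted p up to 0.108).

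Members called with olaparib in WT cells but under 1.5-fold in PARP1 KO cells were likewise highest in PARP1 KO olaparib replicate 1. TRIB3 read 196, 174 and 162 CPM there, a log2 fold change of 0.52 (edgeR adjusted p = 2.58e-05). ERN1 read 54.5, 44.9 and 38.3 CPM (0.50), CEBPB 112, 96.7 and 96.7 CPM (0.46) and CEBPG 130.4, 113 and 107 CPM (0.43), each with an adjusted p of at most 0.00763. PPP1R15A was at 55.8, 51.00 and 49.5 CPM (0.39, adjusted p = 0.133) and SLC3A2 at 430.2, 382 and 385 CPM (0.31, adjusted p = 0.000939). All 18 olaparib values of these 6 genes lay above the DMSO values of the same gene. In this comparison 23 of the 38 members had no overlap between the groups, and the share of all genes without overlap was not counted. ATF4 read 271, 217 and 224 CPM with a log2 fold change of 0.21 that did not pass (adjusted p = 0.0678).

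None of the 10 chaperone genes was called with olaparib in PARP1 KO cells (0 in edgeR), and 2 passed the adjusted p, where 0.803% of all genes were called and 8.29% passed. HSPA5 read 3049.8, 2576 and 2383 CPM (0.32 on the log2 scale, edgeR adjusted p = 0.0193) and MANF 112, 94.4 and 87.5 CPM (0.24, adjusted p = 0.0439), both under 1.5-fold. HSP90B1 read 2225, 1992 and 1849 CPM, PDIA4 315, 294 and 270.0 CPM and SDF2L1 37.9, 32.3 and 32.9 CPM. None of these 3 passed the adjusted p, and each overlapped its DMSO range. XBP1 was at 1317, 1411 and 1441 CPM, below all its DMSO libraries (-0.23, edgeR adjusted p = 0.00478, under 1.5-fold), while the transporters SLC7A5 (466, 443 and 420.2 CPM) and SLC7A11 (13.2, 17.1 and 15.6 CPM) did not pass.

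Between niraparib and olaparib in PARP1 KO cells, 4 of 38 members were called (10.5%), all lower with niraparib, where 1.07% of all genes were called. These were DDIT3 (-0.95), TRIB3 (-0.74), DDIT4 (-0.71) and HERPUD1 (-0.62 on the log2 scale, edgeR adjusted p at most 0.0126). Without PARP1 KO olaparib replicate 1, DDIT3 and TRIB3 were called. By the adjusted p alone 18 members differed (1 higher, 17 lower; 10.0% of all genes), and the median over the members was -0.23, beside 0.0031 over all genes. None of the 10 chaperone genes was called, with HSPA5 at -0.30 (adjusted p = 0.0201).

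**Figure D3:**
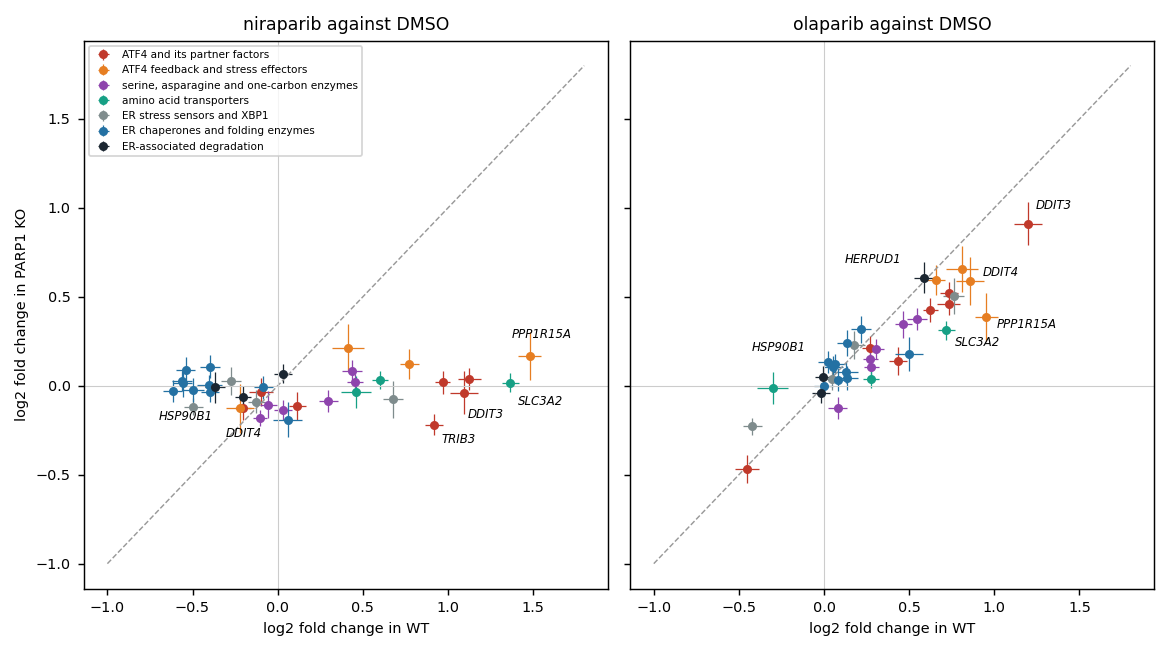
Log2 fold change against DMSO in PARP1 KO cells (vertical axis) plotted against that in WT cells (horizontal axis) for niraparib (left) and olaparib (right), 37 genes (ASNS left out), with bars of 1 SE and colours by role. The niraparib points lie along the horizontal zero line, from -0.62 to 1.48 in WT cells, while most olaparib points lie near or below the dashed line of equal change. The genes called with olaparib in WT cells lie below it except HERPUD1, farthest PPP1R15A (0.95 against 0.39) and SLC3A2 (0.72 against 0.31).

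The difference between the genotypes was tested directly as the interaction of genotype and drug over all 18 libraries. For niraparib, 9 of 38 members were called (23.7%), where 8.88% of all 24675 genes tested were called. In 8 the change was lower in PARP1 KO than in WT cells, by -1.36 for SLC3A2 (SE 0.073, edgeR adjusted p = 1.64e-16), -1.32 for PPP1R15A (SE 0.17, adjusted p = 4.77e-05), -1.14 for TRIB3, -1.14 for DDIT3, -1.09 for CEBPB, -0.96 for CEBPG, -0.76 for ERN1 and -0.66 for SESN2. In MANF it was higher, by 0.62 (adjusted p = 1.49e-05), or 0.56 and short of 1.5-fold without WT niraparib replicate 2. Without WT niraparib replicate 1, 14 members were called, and the share of all genes was not counted for that fit. With all 18 libraries, 24 members passed by the adjusted p alone (11 higher, 13 lower, beside 22.9% of all genes). The 11 higher ones included 8 of the 10 chaperone genes, such as HSP90B1 and PDIA4 (both 0.58) and HSPA5 (0.57), as well as XBP1 (0.37), EIF2AK3 and HERPUD1. The median interaction of the members was -0.068, beside 0.033 over all genes. ATF4 gave 0.072 (95% interval -0.096 to 0.24, adjusted p = 0.606).

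For olaparib, the interaction called 0 of 38 members in edgeR, where 0.657% of all genes were called, and 0 in DESeq2. At an unadjusted p below 0.05 there were 12 (15.7% of all genes), and 1 passed the adjusted p alone (2.27% of all genes), SLC3A2 at -0.40 (edgeR adjusted p = 0.00128). The estimate was negative for 27 of the 38 genes, with a median of -0.078, beside 0.012 over all genes. PPP1R15A had the largest estimate, -0.56 (95% interval -0.93 to -0.20, adjusted p = 0.113). The intervals of DDIT3 (-0.64 to 0.078) and DDIT4 (-0.65 to 0.12) reached beyond 1.5-fold, whereas those of TRIB3 (-0.37 to -0.043), SESN2 (-0.27 to 0.15) and HSPA5 (-0.097 to 0.31) lay inside it.

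Without drug, PARP1 KO against WT called 0 of 38 members in edgeR, where 0.146% of all genes were called, and 0 in DESeq2. There were 14 members with an unadjusted p below 0.05 (13.6% of all genes) and 5 with an adjusted p below 0.05 (1.39% of all genes), all 5 lower in PARP1 KO cells. They were CHAC1 (-0.56), HERPUD1 (-0.40), SESN2 (-0.36), TRIB3 (-0.35) and MANF (-0.26 on the log2 scale, edgeR adjusted p from 0.000896 to 0.0489). TRIB3, for example, lay between 151 and 162 CPM in WT and between 122 and 126 CPM in PARP1 KO cells, without overlap. The median over the members was -0.084, beside -0.0016 over all genes.

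The wider pathway was read from 90 further genes in 7 lists. Here 17 of the 90 were called with niraparib in WT cells, 13 higher and 4 lower. Of all genes 13.8% were called, 8.10% higher and 5.72% lower. With olaparib 11 of the 90 were called, 10 higher and 1 lower, where 4.04% of all genes were called (2.06% higher, 1.98% lower). Of 12 aminoacyl-tRNA synthetases, which charge tRNAs and are ATF4 targets, 3 were called higher with niraparib, namely SARS1 (0.95), TARS1 (0.83) and AARS1 (0.59 on the log2 scale), and 0 with olaparib (median 0.50 and 0.24). Of 15 stress response targets, 8 were called higher and 1 lower with niraparib, and 9 higher and 1 lower with olaparib. The gene called lower with each drug was STC2, with log2 fold changes of -1.17 and -0.65. STC2 averaged 2349 CPM with DMSO, 1042 CPM with niraparib and 1496 CPM with olaparib, while FGF21 below was near the floor. The largest niraparib changes were those of FGF21, a stress hormone with 48 counts at most in a library (1.97), ATF3, a repressor induced by ATF4 (1.81), and GDF15, a stress cytokine (1.75). With olaparib the same genes gave 1.75, 0.91 and 1.48. In the amino acid supply list, 2 of 11 were called with niraparib, the mitochondrial folate enzyme MTHFD1L (1.81) and the cationic transporter SLC7A1 (0.60). With olaparib MTHFD1L was called (0.96). By the adjusted p alone, 3 of these 11 were higher and 3 lower with niraparib (median 0.11). Of all genes 38.0% passed in either direction there. With olaparib 5 of the 11 passed higher and 1 lower (median 0.24), beside 11.2% of all genes higher and 7.77% lower.

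Of 19 further ER chaperones and folding enzymes, 2 were called with niraparib in WT cells, both lower, namely TXNDC5 (-0.67) and FKBP14 (-0.60 on the log2 scale). TXNDC5 shares 60.6% of its exon bases with the readthrough gene BLOC1S5-TXNDC5, where reads were left uncounted, and had 3746 counts over all 18 libraries. By the adjusted p alone 11 of the 19 passed, all lower, where 38.0% of all genes passed in either direction. Of 13 further degradation genes, 0 were called in edgeR, and 7 passed lower and 1 higher by the adjusted p. CREB3L2 (-0.63), an ATF6-like factor, was the gene called among 8 factors and proteases of that type. The 12 genes for eIF2 kinases, phosphatase and exchange factor held 0 calls in any of the 9 comparisons. In PARP1 KO cells 0 of the 90 were called with niraparib, where 0.0136% of all genes were called. With olaparib 3 were called (0.803% of all genes), all higher, namely GDF15 (1.02), KLHL24 (0.76) and GADD45A (0.66). The niraparib interaction called 3 higher and 14 lower (8.88% of all genes), the latter including 5 of the 12 synthetases, and the olaparib interaction called MTHFD1L (-0.77), where 0.657% of all genes were called.

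**Figure D4:**
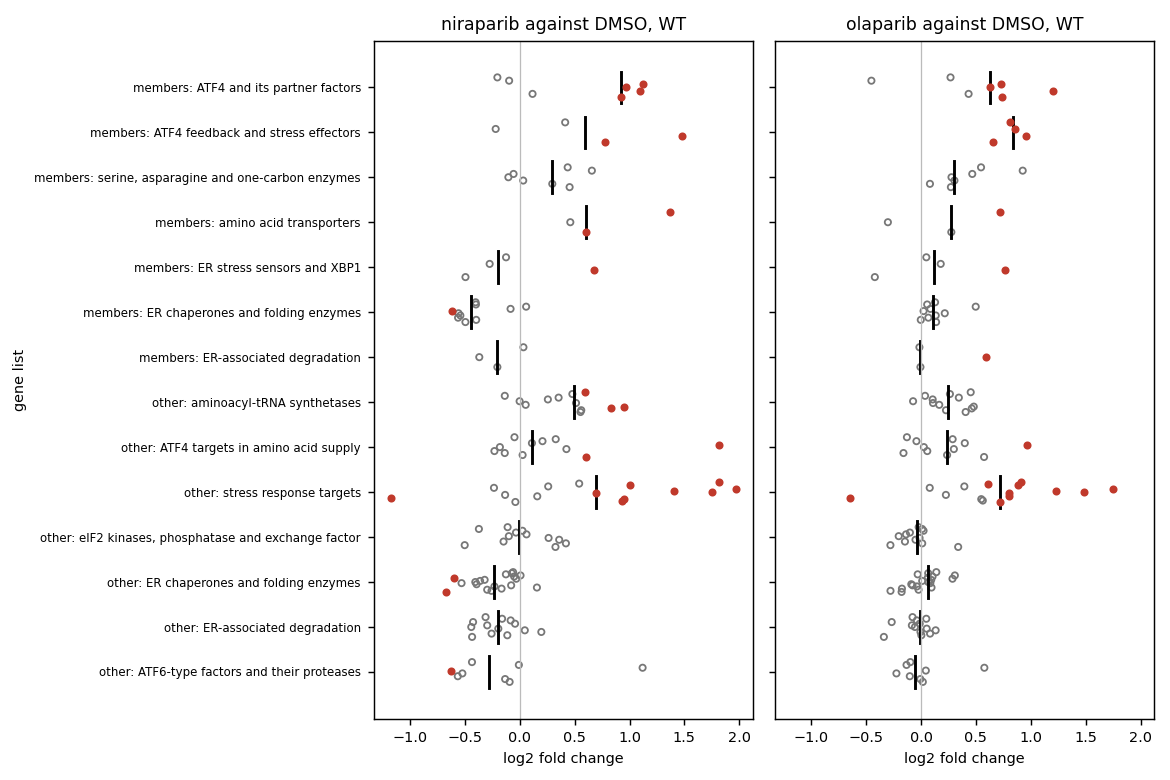
Log2 fold change against DMSO in WT cells (horizontal axis) with niraparib (left) and olaparib (right) for each gene of the 7 lists of the 38 members and of the 7 lists of 90 further pathway genes (vertical axis). Filled points were called, open points were not, and black bars are list medians; the chaperone medians lie left of zero with niraparib, at -0.45 for the 10 members and -0.23 for the 19 others.

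Over the 18 libraries, the genes whose log2 CPM was most like that of 3 members were ranked by Pearson's r among the 13526 genes that averaged 1 CPM or more. For TRIB3 these were the synthetase genes AARS1 (r = 0.987) and YARS1 (0.983), followed by ZNF518A (0.980), CREBRF (0.979) and DVL2 (0.978). For HSPA5 they were UBALD2 (0.986), RHOT1 (0.983), TRAF3IP2 (0.979), the ER chaperone HYOU1 (0.977) and SIN3A (0.975). For ATF4 they were SRSF4 (0.967), MLLT10 (0.966), SLC25A30 (0.963), BCL2L2 (0.961) and HERPUD1 (0.960). The 18 points fall into 6 groups of 3, so that these values describe the group pattern.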

How the data were processed

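The authors deposited raw counts of reads per gene for each of 18 libraries. Per the methods and labels, poly(A) RNA was made into stranded libraries, and the reads were trimmed (Trimmomatic), mapped to GRCh38 (STAR), passed through Picard MarkDuplicates and counted on exons with featureCounts 2.0.0 (reverse strand, primary alignments, Ensembl release 96). Reads on exons shared by genes of the same strand were not counted. Whether duplicates were removed before counting or only marked is not settled by the sources used here. Labels and methods differ on RNA input, medium and kit.

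The test was the quasi-likelihood F test of edgeR 4.0.16 (R 4.3.3) with TMM factors and robust dispersions, adjusted by Benjamini-Hochberg over every gene that had more than 10 counts summed across the libraries fitted. The WT and PARP1 KO fits used 9 libraries each, and genotype comparisons used all 18. The biological coefficient of variation was 7.04% in WT and 7.42% in PARP1 KO. SEs are the absolute log2 fold change over the root of F. CPM used TMM-scaled totals, and TPM the exon lengths. The code was tested on simulated counts. All 18 replicate pairs differed beyond sampling noise (chi-square per gene 3.0 to 17.3). The study prepared 3 dishes per condition and describes its T47D transcriptomics as 1 representative experiment. It does not say that each library came from its own dish, so p-values measure the spread between libraries within an experiment, which may be technical.

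Members and lists were chosen with earlier results of these data known. Values per library are given for ATF4, DDIT3, XBP1 and HSPA5 and for members called in at least 1 comparison (20 genes in all), and the other 18 by range or count. In the other lists, up to 3 called genes with the largest niraparib change in WT were named. STC2 and the genes called in PARP1 KO or by the olaparib interaction were named after their values were seen. Alternatives were RLE size factors, other count filters, DESeq2 1.42.0, a replicate block, all 18 libraries in 1 fit, other thresholds and each library left out.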

Additional observations from a re-analysis of the deposited data

Results flagged for a closer look

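The niraparib response differed between the genotypes, by the interaction test over all 18 libraries, for 9 of the 38 genes, where 8.88% of all genes were called. In the same fit 24 passed the adjusted p alone (22.9% of all genes). Without WT niraparib replicate 1, 14 were called, and the share of all genes was not counted for that fit. On the log2 scale the change in PARP1 KO minus that in WT cells was -1.356 for SLC3A2, -1.318 for PPP1R15A, -1.144 for TRIB3, -1.139 for DDIT3, -1.092 for CEBPB, -0.9564 for CEBPG, -0.762 for ERN1, -0.6557 for SESN2 and 0.6236 for MANF (edgeR adjusted p at most 0.000198). All 9 kept their sign in each of 17 alternative analyses, and MANF alone fell short of 1.5-fold in 1 of them, without WT niraparib replicate 2. The genotypes also carry different cell line labels, so that PARP1 loss and line cannot be told apart.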

How the results depend on the processing

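Of 48 called pairs of gene and comparison, 35 were called in each alternative analysis that kept both thresholds (12 or 17 per pair) and 0 changed sign in any of these. By the adjusted p alone, without a fold limit, the members passing were 28 for niraparib and 25 for olaparib against DMSO in WT cells, 31 between the drugs, 18 for olaparib against DMSO and 18 between the drugs in PARP1 KO cells, 5 between genotypes, 24 for the niraparib interaction and 1 for the olaparib interaction. With a log2 limit of 1.5, 0 members were called for niraparib, olaparib or the pair of drugs in WT cells, for olaparib or the pair of drugs in PARP1 KO cells and for the niraparib interaction. Leaving out 1 library at a time gave 9 to 12 (niraparib, WT), 10 to 11 (olaparib, WT), 6 to 9 (between drugs, WT), 0 to 0 (niraparib, PARP1 KO), 1 to 6 (olaparib, PARP1 KO), 2 to 5 (between drugs, PARP1 KO), 0 to 1 (genotypes; CHAC1 without WT DMSO replicate 3), 9 to 14 (niraparib interaction) and 0 to 1 called members (olaparib interaction; PPP1R15A without PARP1 KO DMSO replicate 3). With the replicate number as a block the counts were 10, 11, 9, 0, 4, 4, 0, 10 and 0 in the order of the comparisons just given. Same-numbered libraries did not deviate together (correlations from -0.56 to 0.578, median -0.063, over 0.1 in 16 of 45 pairs; 7 of 18 libraries correlated best with their own number), so the numbers were not taken as pairs. The cause of the changed calls was not tested, and the share of all genes called was not counted in the fits with 1 library left out or with a block. With 433 counts in all, ASNS could not be judged.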
